A study of Mus musculus with 24 samples.

Results

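Heart muscle genes are read in whole lung of the mouse. Heart muscle cells are known to reach from the left atrium along the pulmonary veins, and the source of the RNA was not tested here. The group described here holds 40 genes of the cardiac sarcomere, of calcium handling, of muscle energy supply and of the atrium, out of 23891 genes in the deposited table. The genes were selected by name after earlier results of house-dust mite (HDM) exposure and dexamethasone (Dex) in the aged lungs were known, so the values that compare those groups are given as a description. Of the 40 genes, 39 were measured and Myl2 was not analysed here.

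RNA-Seq was performed on the left lung lobe of 24 C57BL/6 mice, which carry no transgene or targeted allele by the labels. The groups were naïve adult mice of 20 wk given saline (n = 5), naïve aged mice of 80 wk given saline (n = 5), aged mice of 80 wk challenged with HDM (n = 7), and aged mice of 80 wk challenged with HDM and treated with Dex, a synthetic glucocorticoid (n = 7). By the study's methods, HDM, an extract of a common aeroallergen, was given intranasally at 50 µg per dose in repeated courses, Dex was injected at 4 mg/kg every 72 h, and harvest followed 24 h after the final challenge. The study asked which genes stay raised in the aged lung despite Dex. No adult mice were exposed to HDM or Dex in these data.

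Heart muscle cells contract by sliding myosin filaments along actin filaments inside the sarcomere, a unit framed by Z-discs and spanned by titin. Calcium released from the sarcoplasmic reticulum through the ryanodine receptor starts each contraction, and troponin on the actin filament senses it. In mice, striated muscle of the cardiac kind forms a sleeve around the pulmonary veins that runs deep into the lung, and it shares the atrial program of light chains and ion channels. A piece of atrium left on a lung would carry the same genes, and the sleeve and adherent atrium cannot be told apart in these data.

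The sequence before the start of several of these genes holds short motifs known from muscle regulation, and 4 such windows are shown here as examples of each motif from 2 atrial and 2 shared sarcomere genes. They are the 250 bases before the RefSeq start (GRCm38.p6), written 5′ to 3′ on the gene's strand, for an atrial light chain, the atrial peptide, titin and a myosin-binding protein. Capitals mark a CArG box (bound by serum response factor), a MEF2 box, the GATA element TGATAA (also counted when its first letter was A) and the letters AGGTGTGA (T-box factors), each searched on both strands.

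Myl7 (chr11:5898783-5899032, minus strand): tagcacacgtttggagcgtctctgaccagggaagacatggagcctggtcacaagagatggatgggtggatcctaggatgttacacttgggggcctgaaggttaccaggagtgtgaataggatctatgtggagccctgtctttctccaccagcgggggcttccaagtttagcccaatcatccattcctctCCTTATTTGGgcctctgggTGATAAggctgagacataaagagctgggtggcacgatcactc

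Nppa (chr4:148000472-148000721, plus strand): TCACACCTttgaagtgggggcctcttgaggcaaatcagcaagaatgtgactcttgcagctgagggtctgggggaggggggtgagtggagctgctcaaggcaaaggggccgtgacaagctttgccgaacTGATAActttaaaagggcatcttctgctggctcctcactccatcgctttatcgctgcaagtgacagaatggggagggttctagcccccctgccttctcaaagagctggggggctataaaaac

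Ttn (chr2:76982548-76982797, minus strand): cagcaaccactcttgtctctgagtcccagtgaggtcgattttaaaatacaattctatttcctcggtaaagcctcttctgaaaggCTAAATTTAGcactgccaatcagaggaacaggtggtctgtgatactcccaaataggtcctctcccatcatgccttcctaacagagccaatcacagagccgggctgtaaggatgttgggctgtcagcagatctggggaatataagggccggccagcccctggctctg

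Mybpc3 (chr2:91117894-91118143, plus strand): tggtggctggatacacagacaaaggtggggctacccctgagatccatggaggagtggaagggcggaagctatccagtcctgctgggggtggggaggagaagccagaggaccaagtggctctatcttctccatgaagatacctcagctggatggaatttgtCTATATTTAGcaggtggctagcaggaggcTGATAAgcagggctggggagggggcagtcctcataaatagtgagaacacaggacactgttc

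In Myl7, which encodes the atrial regulatory light chain, the CArG box lay 61 to 52 bases before the start and a TGATAA 42 to 37 bases before it. Nppa, the gene of atrial natriuretic peptide, had a TGATAA 122 to 117 bases before the start and the reverse strand of AGGTGTGA at 250 to 243 bases. The MEF2 box lay 166 to 157 bases before the start in Ttn and 90 to 81 bases before it in Mybpc3, which also had a TGATAA at 61 to 56 bases. Windows were found for 34 of the 40 genes (Cox6a2, Xirp1, Myom2, Trdn, Tcap and Sln had none). A CArG box was present for 7 of the 34 (20.6%), Actc1, Fhl2, Ldb3, Myl3, Myl7, Myom1 and Nebl, and for 1.62% of all 27018 genes with such windows. A MEF2 box was present for 3 of 34 (8.82%) and for 0.592% of all genes. The GATA element was present for 11 of 34 (32.4%) and for 18.8% of all genes, and AGGTGTGA for 2 of 34 (5.88%) and for 1.3% of all genes. None of these motifs overlapped another in the 4 windows shown. A match describes letters only and was not tested as a site of binding.

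By estimated depth the samples held 10.1 to 33.1 M reads on genes, and 3 reads, the limit of detection used here, were worth 0.0906 to 0.298 CPM. This floor covers counting error only. CPM is a gene's count scaled to the same library total in each sample, and the table adds 0.0001 to it throughout. One adult saline sample, replicate 5, stood apart: 16 of 19 skeletal muscle genes and 8 of 10 fat cell genes had their highest level of all samples there, with summed levels of 1160.4 CPM for skeletal muscle and 265 CPM for fat against at most 33 and 52.8 CPM elsewhere. The 7SL RNA genes Rn7s1 and Rn7s2 took more than 25% of the CPM in 1 adult saline, no aged saline, 5 HDM and 4 HDM + Dex samples. By the levels of Xist and Ddx3y, 5 of 5 adult saline samples were female, and males were 3 of 5 in aged saline, 5 of 7 in HDM and 3 of 7 in HDM + Dex. The labels do not state that samples came from separate cages or litters, so p-values measure the spread between these samples.

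In the naïve aged lung, heart muscle RNA was plentiful and was led by a few genes. The 39 genes summed to 3170.3, 2745, 2725, 1652 and 2388 CPM in the 5 aged saline mice, with the lowest value in replicate 4. Ttn (titin), Myh6 (alpha myosin heavy chain) and Nebl (nebulette, a Z-disc protein) made up 72.2% of the mean sum, with Ttn alone at 37.9%. Per kilobase of the principal transcript, the order of mean levels was led by Myh6 at 106 ± 22.7 CPM per kb (SD, n = 5), Tnnt2 (cardiac troponin T) at 71.2 ± 9.7, Myl4 (the atrial essential light chain) at 45.9 ± 13.2, Actc1 (cardiac actin) at 44.6 ± 10.2 and Tnni3 (cardiac troponin I) at 41.1 ± 12.3. The last 3 of these differ by less than their SD. Ttn, whose transcript is 100.4 kb long, was at 9.58 ± 2.52 CPM per kb. All 39 genes were above 3 reads in all 10 saline samples.

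The atrial light chain genes exceeded the ventricular one in the naïve lungs. Myl4 was at 49.1, 58.2, 41.4, 24.2 and 43.6 CPM and Myl7 at 10.8, 10.9, 12.4, 9.6 and 12.4 CPM in the aged saline mice. Myl3, the ventricular essential light chain, which slow skeletal muscle also makes, was at 2.79, 1.75, 1.69, 1.16 and 0.544 CPM in the same mice. Per kilobase, mean levels in aged saline were 45.9 for Myl4, 19.1 for Myl7 and 1.69 for Myl3, and the lowest Myl4 value lay above the highest Myl3 value. In adult saline, Myl3 was at 1.29, 1.19, 0.273 and 1.51 CPM in 4 mice and at 21.6 CPM in the sample with skeletal muscle RNA, where it still lay below Myl7 and Myl4 per kilobase. Other atrial genes were also present in aged saline: Nppa at 15.7 ± 12.6 CPM (SD, n = 5), Sln (sarcolipin, an inhibitor of the calcium pump) at 4.25 ± 1.35 CPM, and the potassium channel genes Kcnj3 at 4.3 ± 2.05 and Kcnj5 at 2.27 ± 0.551 CPM. Myh7, the beta heavy chain, which slow skeletal muscle also uses, was at 65.8, 91.9, 32.3, 24.4 and 103 CPM in aged saline. A gene of the class listed here as ventricle-enriched was therefore not absent. That listing was made by gene name, and whether ventricle was the source of the Myh7 RNA was not tested. Myh6 and Myh7 are neighbours on chromosome 14 (Myh6 at 54941921 to 54966927 and Myh7 at 54970684 to 54994626, GRCm38, minus strand) with similar coding sequences, and reads may be split between them.

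**Figure D1:**
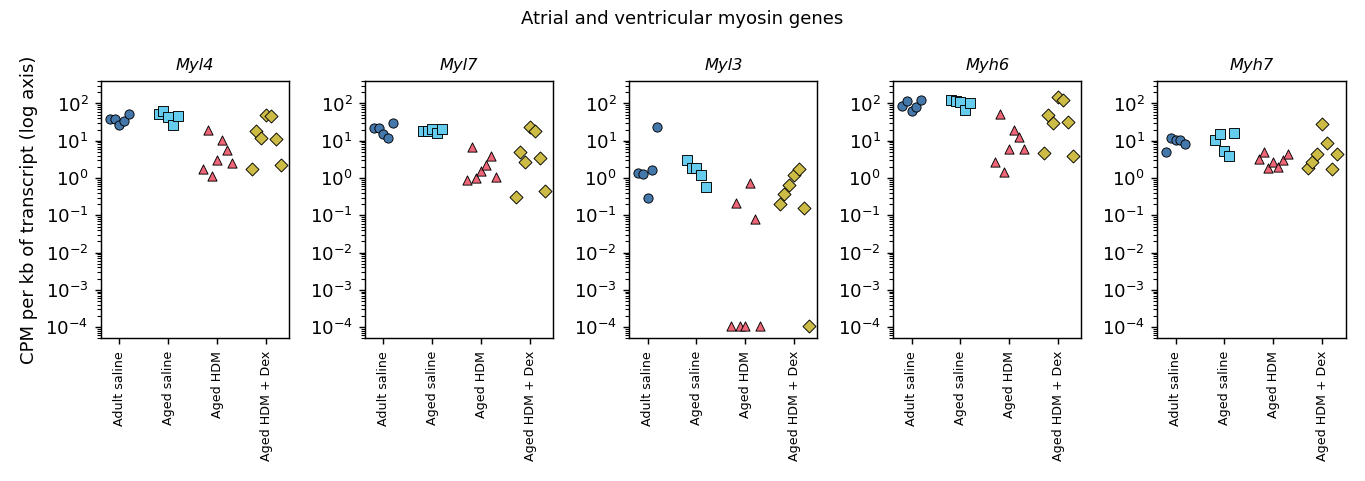
CPM per kb of the principal transcript (log axis) in each sample for 2 atrial light chain genes (Myl4, Myl7), a ventricular light chain gene (Myl3) and the alpha and beta heavy chain genes (Myh6, Myh7), by group; points at the bottom are samples listed at the constant. Myl3 lies below Myl4 and Myl7 in all 10 saline samples, and closest to them in the 1 adult sample where it reached 21.6 CPM.

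The comparison that the choice of genes used least is that of age. The aged saline samples also stand in the HDM comparisons, so it is independent in part only. In aged vs. adult saline, none of the 38 heart muscle genes that averaged 1 CPM or more over the 24 mice passed limma's test at an adjusted p under 0.05, and none had an unadjusted p under 0.05. Over all 17744 genes tested, 0.062% were lower and 0.592% higher in aged lungs. The median log2 fold change was 0.06 for the heart muscle genes (from −0.50 to 0.56, 25 of 38 above 0) and 0.19 for all genes. Its sign turned with the scaling, to −0.13 after median-of-ratios rescaling or quantile normalization, and it was −0.15 with sex as a covariate, where all adult mice were female and 3 of 5 aged mice male. The smallest unadjusted p was 0.0828, for Ckmt2 (mitochondrial creatine kinase, which links ATP made in mitochondria to the contractile apparatus), with a log2 fold change of 0.56 ± 0.30 (SE).

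The most abundant gene of each class was also compared by itself. Myl4 was at 36.4, 35.4, 24.4, 32.3 and 50.3 CPM in adult saline, within the range of the aged saline mice. Its mean was 43.3 ± 12.5 CPM in aged and 35.8 ± 9.41 in adult mice (SD, n = 5 each; p = 0.333, two-sided exact permutation test, adjusted 0.944 over 6 genes; higher in aged in 17 of 25 pairs). Corin, which encodes the protease that cleaves pro-atrial natriuretic peptide, was at 3.74 ± 1.24 CPM in aged and 2.73 ± 0.894 in adult mice (p = 0.190, exact permutation, adjusted 0.944). The exact permutation p was 0.714 for Myh7, 0.786 for Ryr2, 0.937 for Mb and 0.944 for Ttn, and the smallest that 5 against 5 mice can give is 0.00794. The mean of Ttn was 962 ± 253 CPM in aged and 1067 ± 858 in adult mice. Without the adult sample that carried skeletal muscle RNA, the mean of Ttn in adults was 693 ± 219 CPM (n = 4), and the sign of its difference turned from −105 to 269 CPM.

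That adult sample raised some heart muscle genes far more than others. Against the mean of the other 4 adult mice, Myl3 was 20.2-fold, Xirp2 10.3-fold, Ckm (muscle creatine kinase) 9.15-fold, Sln 6.22-fold and Trdn (triadin, which anchors the calcium store to its release channel) 5.59-fold as high. Each of these genes is also active in skeletal muscle. Nppa, which is not known as a skeletal muscle gene, was 4.75-fold as high. Myl7, Myl4 and Myh6 were 1.65-, 1.57- and 1.38-fold as high, and Ryr2, Actc1 and Gja5 were 0.95-, 1.03- and 0.845-fold. The part of muscle from outside the lung in these values was not tested.

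Between HDM and saline in the aged mice, heart muscle RNA was lower in all 7 HDM samples than in any of the 10 saline samples. The sums were 289, 1294, 230, 338, 609, 597 and 400 CPM in the HDM mice and ran from 1533 to 4559 CPM over the adult and aged saline mice. HDM replicate 2 was the highest by far, with the highest level in its group for 31 of 39 genes, and replicate 3, which had the fewest reads, had the lowest for 24. In a sample of whole lung, fewer heart muscle cells and less of this RNA per cell cannot be told apart. Mean CPM in HDM was below 25% of the aged saline mean for 28 of the 39 genes, with a median over genes of 16.7% (from 6.91% for Sln to 287% for Corin). Of the 38 genes in the fit, 36 were lower at an adjusted p under 0.05 by limma and none was higher, where 21.2% of all genes were lower and 4.04% higher. For 27 of the 38, the HDM and aged saline values did not overlap, where 7.69% of all genes were lower without overlap. Since these values entered the choice of the genes, nothing is read from the counts. Of the 38 genes, 9 had a mean under 1 CPM in HDM (Sln, Kcnj3, Kcnj5, Myl3, Xirp1, Smpx, Trdn, Ckm and Cox8b) and passed the filter on low values through other groups. Cox7a1, the gene not in the fit, was at 0.804 to 1.53 CPM in aged saline and at no more than 0.38 CPM in HDM.

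**Figure D2:**
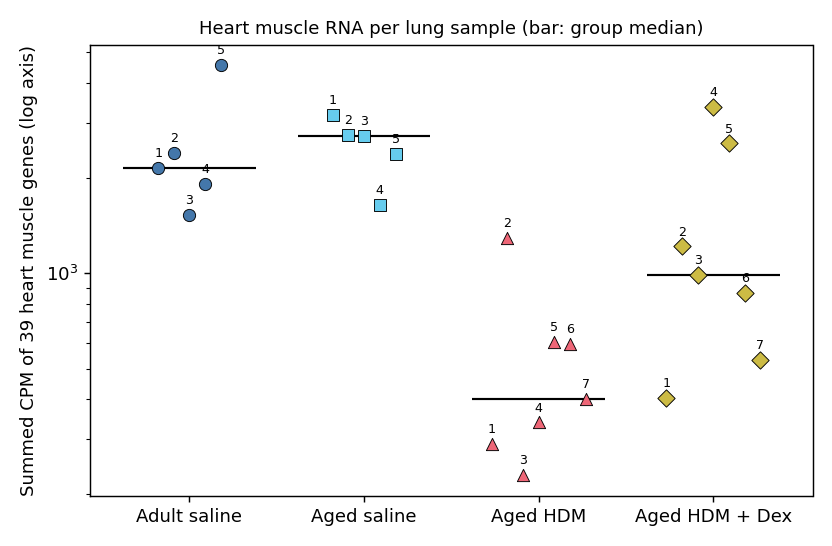
Summed CPM of the 39 heart muscle genes measured (log axis) in each sample, numbered by replicate, with the group median as a bar. The 7 HDM samples (230 to 1294 CPM) lie below all 10 saline samples, and the 7 HDM + Dex samples run from 403 to 3355 CPM.

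The fall of the median of all genes by 0.23 on the log2 scale in HDM vs. saline belongs beside these values. With median-of-ratios rescaling of the CPM, the median of all genes was −0.01, calls over all genes changed from 3765 lower and 717 higher to 2057 lower and 1930 higher, and the heart muscle genes had 35 calls, with a median log2 fold change of −1.80 in place of −1.99. Among samples with a 7SL share of at most 25%, the sums were 597 and 400 CPM in 2 HDM mice and 1652 to 3170.3 CPM in 5 aged saline mice, and the fit to those samples called 15 of 38 genes lower, beside 2.33% of all genes, with a median of −2.17. The 5 HDM samples above that share are the 5 male ones, so 7SL share and sex cannot be told apart within HDM. In males alone the median was −2.09 and 36 of 38 genes were lower, beside 28.1% of all genes. In females alone, with 2 saline and 2 HDM mice, the median was −1.96 and none was called by limma, where 2 of all genes were lower and 7 higher.

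Among the sarcomere genes that heart chambers share, Myh6 had the lowest fitted log2 fold change and Xirp2 the lowest mean as a share of aged saline, 8.65% beside 13.8% for Myh6. Myh6 was at 774, 726, 680, 415 and 641 CPM in aged saline and at 16.3, 326, 8.71, 36.4, 121, 79 and 36.4 CPM in HDM, without overlap (log2 fold change −3.67 ± 0.82, SE). Tnnt2 was at 67.7 to 96.2 CPM in saline and at 3.94, 36.9, 3.68, 10.2, 16.4, 18.7 and 7.28 CPM in HDM (−2.89 ± 0.62). Ttn was at 1257, 1032, 1101, 616 and 805 CPM in saline and at 55.9, 473, 55.3, 91.9, 187, 198 and 111 CPM in HDM (−2.86 ± 0.53). All 18 genes of this class were lower in HDM by fitted fold change, from −3.67 for Myh6 to −1.01 for Nebl. Csrp3 (a Z-disc sensor protein), Xirp2 (an intercalated disc protein), Actn2 (alpha-actinin of the Z-disc) and Tnnc1 (troponin C, the calcium sensor of cardiac and slow muscle) had log2 fold changes of −2.68 ± 0.52, −3.04 ± 0.60, −2.37 ± 0.51 and −2.32 ± 0.48.

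Nebl kept the largest part of its level in this class. It was at 267, 173, 240, 196 and 234 CPM in aged saline and at 85.3, 142, 80, 96.2, 89.2, 152 and 141 CPM in HDM, 50.5% of the saline mean. The groups did not overlap. The gene also encodes a shorter protein of focal adhesions that many tissues make, and its gene-level CPM does not separate the 2 products. Fhl2, a LIM protein of the sarcomere that other tissues also make, was at 36.5% of its saline mean, and Myom1 (myomesin of the M-band) at 33.1%.

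The median log2 fold change was −2.01 for the atrial-enriched genes and −2.19 for the shared sarcomere genes. By mean CPM in HDM, the median gene was at 13.6% of its aged saline mean among the atrial-enriched genes. It was at 18.3% among the shared sarcomere genes, so the order of the classes depends on the measure. Myl4 was at 1.63, 18, 1.09, 2.96, 9.67, 5.32 and 2.45 CPM in HDM, and each value lay below the lowest aged saline value of 24.2 CPM (log2 fold change −3.05 ± 0.63). Myl7 was at 0.514, 3.95, 0.597, 0.888, 1.35, 2.28 and 0.634 CPM in HDM, again without overlap (−2.44 ± 0.49). Nppa was at 36, 16.8, 14, 2.17 and 9.48 CPM in aged saline and at 0.257, 5.69, 0.199, 0.222, 7.82, 0.38 and 0.514 CPM in HDM, so that 2 HDM mice lay above the lowest saline mouse. Sln, Kcnj3 and Kcnj5 had log2 fold changes of −2.01 ± 0.39, −1.88 ± 0.42 and −1.27 ± 0.26. The smallest change was that of Gja5, the gene of connexin 40, which arterial endothelial cells also make. It was at 45, 30.8, 26.8, 23.2 and 11.9 CPM in aged saline and at 18.3, 24.3, 11.5, 11.8, 17.6, 21.2 and 12.1 CPM in HDM, with overlapping groups, and its log2 fold change was −0.63 ± 0.23.

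Of the ventricle-enriched genes, Myl3 was below 3 reads in 5 of 7 HDM samples and reached 0.676 CPM in HDM replicate 5. Its log2 fold change of −1.15 ± 0.24 depends on the pseudocount at such levels. Myh7 was at 20.8, 30.4, 11.5, 16.5, 12.2, 18.8 and 27.5 CPM in HDM, 31% of the aged saline mean, and the 2 highest of these lay above the lowest saline mouse. The ratio of Myh6 to Myh7 CPM was 6.25 to 21 in aged saline, 5.87 to 17.1 in adult saline and 0.754 to 10.7 in HDM, with medians of 11.8, 9.86 and 2.21. All 7 HDM mice lay below the aged saline median of this ratio, and the groups overlapped.

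**Figure D3:**
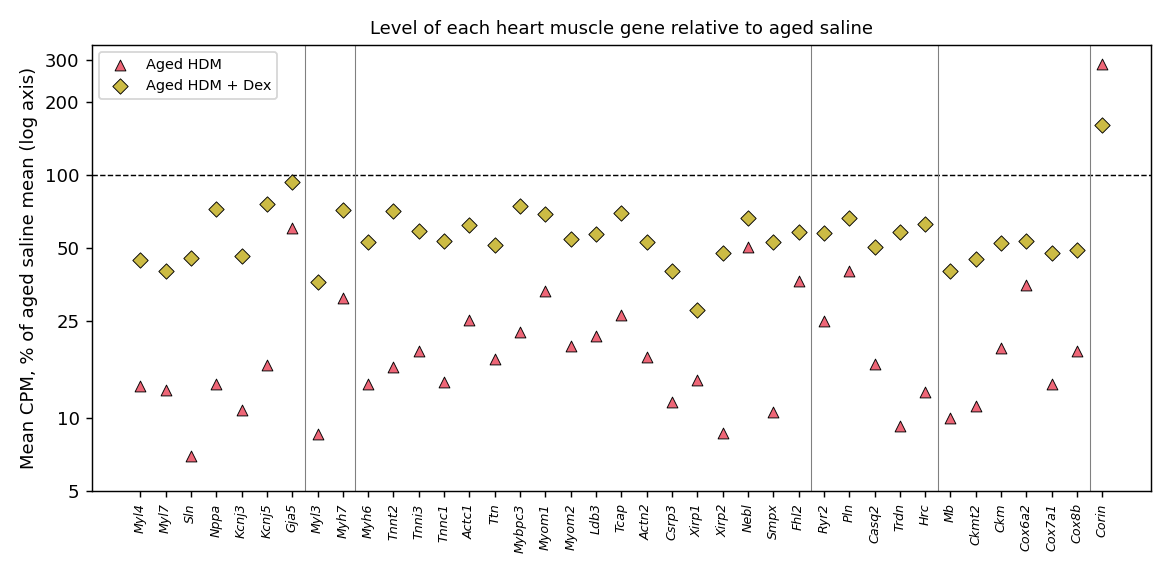
Mean CPM in HDM (n = 7) and HDM + Dex (n = 7) as a percentage of the aged saline mean (n = 5; dashed line at 100%, log axis) for each of 39 genes, with vertical lines between the classes from atrial genes on the left to Corin on the right. Most genes lie under 25% in HDM and between 40% and 75% in HDM + Dex; Corin lies above 100% in both.

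Calcium handling genes were lower in HDM as a class of 5. Ryr2, the calcium release channel, was at 124, 114, 105, 59.2 and 83.6 CPM in aged saline and at 18.6, 66.8, 8.36, 13.8, 22.5, 26.9 and 13.3 CPM in HDM, and only replicate 2 reached into the saline range. Casq2 (calsequestrin, which buffers stored calcium), Trdn and Hrc (a histidine-rich calcium binding protein of the same store) had log2 fold changes of −2.09 ± 0.42, −1.76 ± 0.35 and −2.45 ± 0.57. Pln, the gene of phospholamban, which restrains the calcium pump and is also made in smooth muscle, was at 40.4% of its saline mean in HDM (−1.14 ± 0.30).

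Energy genes included one of the largest falls and several genes of low level. Mb, the gene of myoglobin, the oxygen-binding protein of striated muscle, was at 42.6, 41.3, 32.1, 10.2 and 32.3 CPM in aged saline and at 0.342, 9.91, 0.299, 1.11, 7.22, 0.988 and 2.17 CPM in HDM, without overlap (−3.31 ± 0.66). Ckmt2 and Ckm had log2 fold changes of −2.54 ± 0.51 and −1.65 ± 0.43. Cox6a2 and Cox8b, which encode muscle forms of cytochrome c oxidase subunits, had −1.23 ± 0.38 and −1.07 ± 0.25 at levels of 4.81 and 1.84 CPM in aged saline.

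Corin was the one gene with a fitted level above saline. It was at 3.95, 2.31, 4.83, 2.61 and 5 CPM in aged saline and at 8.39, 2.01, 14.9, 17, 30.1, 1.6 and 1.21 CPM in HDM. In HDM replicates 1, 3, 4 and 5 it lay above every saline mouse, and in replicates 2, 6 and 7 below every aged saline mouse. Its log2 fold change was 0.72 ± 0.56, and the groups overlapped. The 4 high samples are all male and all above 25% in 7SL share, and the fifth such sample, replicate 2, was at 2.01 CPM.

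In the Dex-treated mice, heart muscle RNA ranged from HDM-like to saline-like amounts. The sums were 403, 1218, 988, 3355, 2576, 867 and 532 CPM. Replicate 4 had the highest level in its group for 31 of 39 genes and lay above the aged saline mean for 34, whereas replicates 1, 3, 6 and 7 lay below the lowest aged saline mouse for 37, 33, 34 and 36 genes. The mean over mice was 53.7% of the aged saline mean for the median gene (from 27.7% for Xirp1 to 161% for Corin). For 28 of the 39 genes, the highest Dex-treated mouse was above the aged saline mean and the lowest was below the HDM median.

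In HDM + Dex vs. HDM, fitted log2 fold changes were above 0 for 37 of 38 genes, with a median of 0.98 beside 0.03 for all genes. One gene passed the adjusted threshold, Myom1, which was higher (0.98 ± 0.19), where 0.75% of all genes were higher and 0.214% lower. Myom1 was at 14, 19.9, 10, 8.51, 11, 11.2 and 9.57 CPM in HDM and at 21.5, 22.7, 28.1, 37, 33.6, 15.7 and 16.5 CPM in HDM + Dex, and the groups overlapped only at HDM replicate 2. Myh6, at 28.6, 294, 188, 897, 773, 198 and 24.3 CPM in HDM + Dex, had a log2 fold change of 1.85 ± 0.75 and included the highest value of all 24 mice. Without HDM replicate 2, 8 of 38 were called, beside 3.07% of all genes. None was called by limma without any one of HDM replicates 1, 3, 4 and 5 or of HDM + Dex replicates 1, 3, 4 and 5, when at most 8 of all genes were called.

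In HDM + Dex vs. saline, the median log2 fold change was −0.96 beside −0.19 for all genes, and 36 of 38 genes were below 0. One gene was lower at the adjusted threshold, where 1.44% of all genes were lower and 0.445% higher. It was Xirp1, an actin-binding protein of the intercalated disc, at 4.91, 10.1, 5.8, 3.82 and 7.02 CPM in aged saline and 0.186, 3, 2.47, 2.53, 2.08, 1.15 and 0.853 CPM in HDM + Dex (−1.46 ± 0.30). The groups did not overlap, and unlike Myh6, Xirp1 was not near the saline level in replicates 4 and 5. Without HDM + Dex replicate 4, 11 of 38 were called beside 3.88% of all genes, and with sample weights 26 of 38 beside 30.8% of all genes, against 1.89% of all genes in the fit described. The 3 comparisons of aged mice share samples, since HDM and saline each stand in a pair of them.

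The Dex-treated samples also differed in 7SL share and sex. Summed levels were 403 to 1218 CPM in the 4 samples above 25% in 7SL share and 532, 2576 and 3355 CPM in the other 3. They were 403 to 1218 CPM in the 3 males and 532 to 3355 CPM in the 4 females. In males alone, the median log2 fold change of HDM + Dex vs. saline was −1.53 and 17 of 38 genes were lower, beside 11.4% of all genes. In females alone it was −0.55 with none called by limma, where 7 of all genes were lower and 2 higher. Whether 7SL share, sex or the amount of vein and atrium sampled had a part in the spread was not tested.

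**Figure D4:**
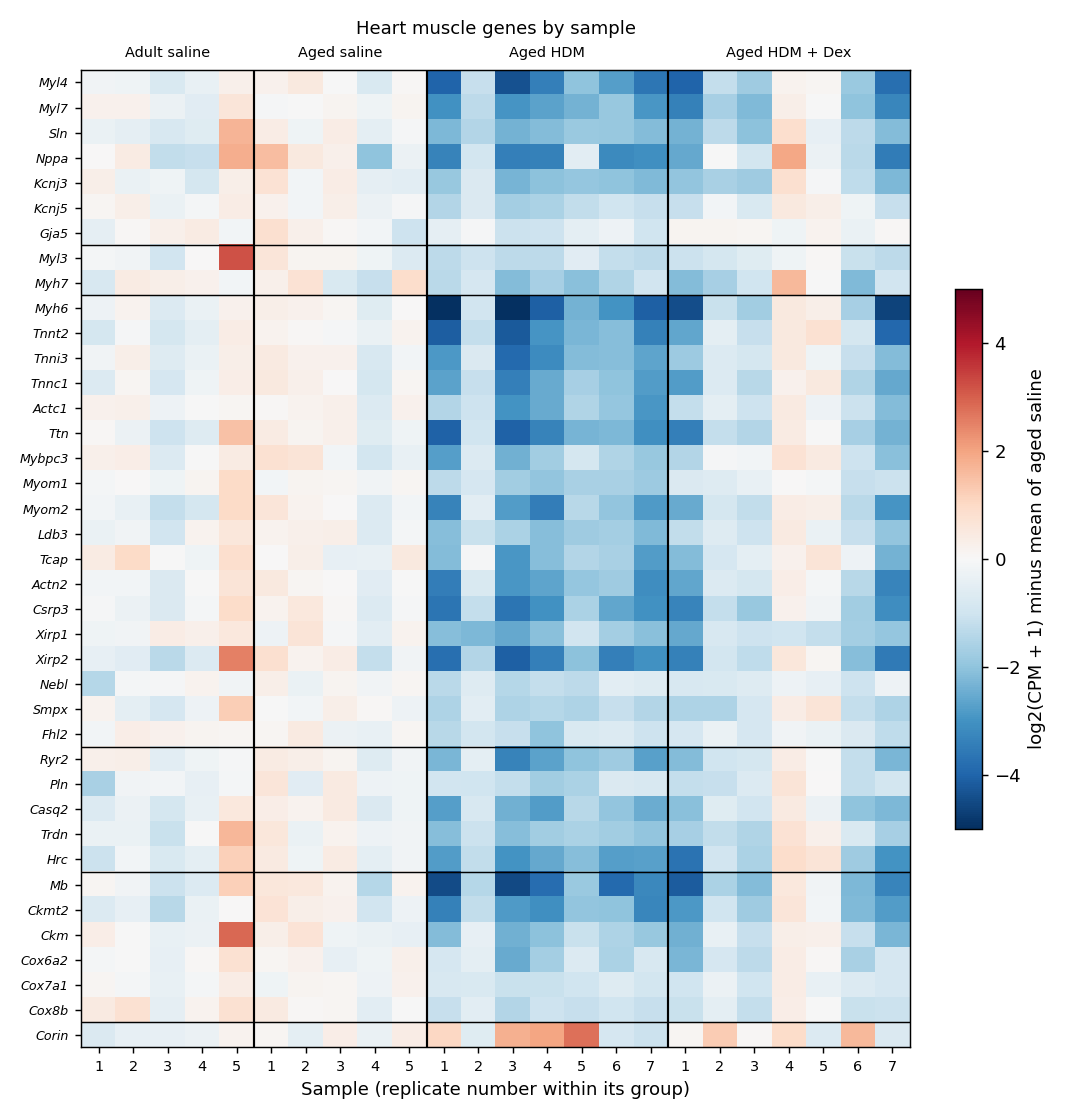
Level of each of 39 heart muscle genes (rows, by class, separated by lines) in each of 24 samples (columns, by group and replicate number), as log2(CPM + 1) minus the mean of the aged saline samples. All 7 HDM columns are blue for most genes and replicate 2 is the palest, HDM + Dex replicates 4 and 5 are close to 0 for most genes, and Corin lies above 0 in 4 HDM samples.

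Some of the genes varied closely with Myh6 across the samples, and others did not. Of the 39 genes, 20 were above 3 reads in every sample, which allows a ratio to Myh6 in each. Myl4 kept the closest ratio to Myh6: the SD of its log2 ratio over the 24 samples was 0.31, while its own log2 CPM had an SD of 1.89 and a 53.2-fold range. The SD of the log2 ratio was 0.60 for Tnnt2, 0.61 for Actn2, 0.66 for Mb, 0.75 for Tcap and Myom2, 0.76 for Ttn, 0.83 for Tnni3 and Casq2, and 0.98 for Ryr2. It was 1.17 for Actc1, 1.23 for Ldb3, 1.46 for Fhl2, 1.48 for Myom1, 1.52 for Myh7, 1.72 for Pln, 1.80 for Nebl, 1.88 for Gja5 and 2.69 for Corin. Each gene in this last series had a smaller SD of its own log2 CPM, from 0.52 for Gja5 to 1.24 for Corin. The SDs hold differences between groups as well as between mice of a group. Within groups, the slope of log2 CPM on that of Myh6 was 0.87 for Myl4 and 1.01 for Mb, and 0.07 for Nebl, 0.07 for Gja5 and −0.02 for Corin. These are descriptions over 24 samples that share library totals, and the slope was 0.16 for Myom1 and Pln, 0.21 for Fhl2 and 0.31 for Myh7.

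**Figure D5:**
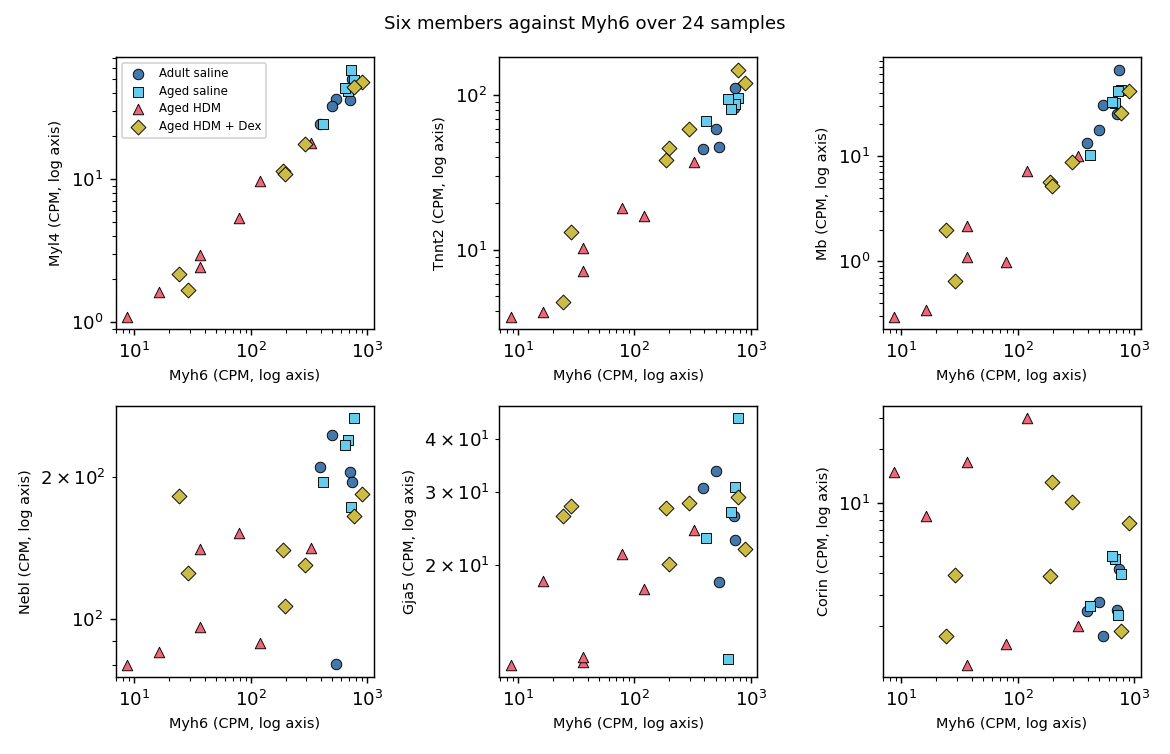
CPM of Myl4, Tnnt2, Mb, Nebl, Gja5 and Corin against CPM of Myh6 (both axes log) in the 24 samples, with a marker for each group. Myl4 follows Myh6 in a narrow band over its 53.2-fold range, and Nebl and Gja5 are nearly flat. The highest Corin values are in HDM samples.

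The genes outside the list whose pattern was most like it were muscle genes for the most part. After each group's mean was removed, the Pearson correlation of log2(CPM + 1) with the mean of the 38 genes over 24 samples was highest for Srl (sarcalumenin, a calcium-binding protein of the muscle store) at 0.955, Mypn (myopalladin of the Z-disc) at 0.944, Cmya5 at 0.911, Mylk4 at 0.907, Smyd1 at 0.904, the transcription factor gene Tbx20 at 0.904, Lmod2 at 0.902, Myoz2 at 0.898, Mylk3 at 0.894 and Mybphl at 0.889. Without the adult sample that carried skeletal muscle RNA the correlations were 0.885 to 0.955. Srl was at 13.8 ± 3.63 CPM in aged saline and 3.54 ± 1.53 in HDM, and Mylk4 at 6.65 ± 1.52 and 0.498 ± 0.435 CPM (SD, n = 5 and 7).

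Of 40 other genes known from heart muscle, 25 were tested in HDM vs. saline, and 21 were lower and none higher (adjusted p under 0.05, limma), beside 21.2% of all genes lower and 4.04% higher, with a median log2 fold change of −1.32. After median-of-ratios rescaling 18 were lower, beside 11.6% of all genes. The rest of the 40 were not tested. Among them, Bmp10, Kcna5, Hcn4 and Nppb reached 1 CPM in only 1, 3, 4 and 1 of the 24 samples. Fabp3, the fatty acid binding protein of heart, Lmod2 (leiomodin, which lengthens actin filaments) and Myoz2 had −2.24 ± 0.47, −2.15 ± 0.40 and −2.06 ± 0.38 (adjusted p = 0.00216, 0.00111 and 0.00102, limma). Lmod2 and Myoz2 averaged 0.891 and 0.43 CPM in HDM and passed the filter on low values through other groups. This list and those below were chosen with earlier results of these data known, so nothing is read from their counts. Ankrd1, a stress-induced muscle gene that other cells also make, was at 21.7 ± 9.13 and 15.5 ± 4.54 CPM and did not pass (adjusted p = 0.347, limma). Among samples with a 7SL share of at most 25%, 9 of the 25 were lower, beside 2.33% of all genes.

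Of 18 cardiac transcription factor genes, 10 were tested and 5 were lower in HDM, beside 21.2% of all genes, with a median log2 fold change of −0.52. Tbx20 was at 4.37 ± 1.57 CPM in aged saline, 0.352 ± 0.505 in HDM and 1.91 ± 1.88 in HDM + Dex (−2.01 ± 0.37 in HDM vs. saline, adjusted p = 0.000957, limma). Its mean in HDM was under 1 CPM, and it passed the filter on low values through other groups. Tbx5, Gata6, Mef2a and Nr2f2, which other lung cells also use, fell by 0.53 to 0.68 on the log2 scale. After median-of-ratios rescaling 3 of the 10 were lower, beside 11.6% of all genes. Nkx2-5, Isl1, Shox2 and Hand2, which mark heart muscle progenitors and parts of the atrium, stayed under 1 CPM in all 24 samples, at no more than 0.889 CPM.

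Genes of other tissues that a lung lobe can carry were read the same way, beside the 21.2% of all genes that were lower. For smooth muscle, whose cells share several of these proteins, 3 of 12 genes were lower in HDM vs. saline, Cnn1, Myl9 and Mylk, with a median log2 fold change of −0.24, which was 0.01 after median-of-ratios rescaling. For skeletal muscle, 4 of 14 genes were lower and 2 higher, with a median of −0.12 and summed levels of 21.8 to 32.2 CPM in aged saline and 19.6 to 33 CPM in HDM. For endothelium of veins, 3 of 6 were lower, with a median of −0.60 that was −0.35 after rescaling, and summed levels of 734 to 990 CPM in saline and 721 to 1237 CPM in HDM. For mesothelium, which lines the lung surface and the pericardium, 1 of 6 was lower. Of 6 thymocyte genes only 2 were tested, Cd4 among them. None of the 2 was called by limma, with 0 at an unadjusted p under 0.05. The rest of that list was not tested, so these values are no check for thymus tissue. Of the fat cell genes, 4 of 6 were lower, Adipoq, Cfd, Cidec and Plin1, with a median of −1.23, and summed levels were 29.3 to 52.8 CPM in aged saline and 11 to 42 CPM in HDM. Among samples with a 7SL share of at most 25%, none of the 6 fat genes was called, with a median of −0.68. The 6 fat genes in HDM + Dex vs. HDM had a median of 0.12 with none called by limma and 0 at an unadjusted p under 0.05, and in HDM + Dex vs. saline a median of −1.05 with 2 lower, Cfd and Plin1. The part of fat tissue in the heart muscle values was not tested.

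In HDM + Dex vs. HDM, none of the 25 other heart muscle genes was called by limma. Of all genes, 0.75% were higher and 0.214% lower. Of the 25, 12 had an unadjusted p under 0.05, a share that is not reported here for all genes. The median log2 fold change of the 25 was 0.51, beside 0.03 for all genes. One smooth muscle gene, Cnn1 (calponin), was higher, at 11.2 ± 2.08 CPM in HDM and 20.7 ± 3.78 in HDM + Dex (adjusted p = 0.027, limma). In HDM + Dex vs. saline, 2 of the 25 were lower, among them Myoz2, beside 1.44% of all genes. In aged vs. adult saline, none of the 25 other heart muscle genes and none of the 10 transcription factor genes was called by limma, and 1 and 0 of them had an unadjusted p under 0.05. Of 6 vein endothelial genes 1 was higher in aged lungs, Slc6a2, beside 0.592% of all genes. Their summed levels were 478 to 742 CPM in adult and 734 to 990 CPM in aged saline. None of 12 smooth muscle genes was called, and all 12 fold changes were below 0. Whether vein content differed with age was not tested.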

How the data were processed

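RNA-Seq of left lung lobes from 24 mice was analysed in the 4 groups given by the labels. The authors prepared stranded mRNA libraries and, per the study's methods, used a Picard-STAR-limma pipeline; the submitters' processing notes name FastQC, STAR, DESeq2 and mm9. They deposited 1 table of CPM that carries an added 0.0001. Its coordinates match GRCm38 (38 of the 39 genes measured start at the GENCODE start), and the strand setting of the counting is not given in the sources used here. The authors' handling of near-identical genes is likewise not given.

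The 40 genes, their classes and the other lists were chosen with earlier results of these data known. The text names all 40 genes by class, list genes called or needed beside a result, and the 10 other genes most correlated with the group. Some list genes are counted but not reported here by name. Depth was estimated from the spacing of low CPM values, taken as 1 read; 80.5% to 85.3% of values below 20 spacings were within 0.05 of a whole multiple, so no counts were recovered and count tests were not run.

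Differences were fitted with limma 3.58.1 (R 4.3.3) on log2(CPM + 1), which understates changes of low genes, for the 17744 genes averaging 1 CPM or more over all samples, with eBayes (trend) and Benjamini-Hochberg adjustment over all of them at 0.05. The 19 aged samples and the 10 saline samples were fitted separately. For 6 single genes a two-sided exact permutation test was used. The fit was tested on simulated data. Levels between genes are CPM per kb of the APPRIS principal transcript (GENCODE M21); promoter windows are from RefSeq (GRCm38.p6). Python 3.11.15, numpy 2.4.6, pandas 2.3.3 and matplotlib 3.10.9 were used. Alternatives were pseudocounts of 0.1 and 5, no filter or 5 CPM, median-of-ratios and quantile scaling, eBayes without trend, other sample sets, a replicate block, sex, sample weights and leaving out each sample. Leaving out the 7SL genes or samples rich in 7SL, and males or females alone, were added after seeing the data.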

Additional observations from a re-analysis of the deposited data

Results flagged for a closer look

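A sample far from the others of its group was found in 14 of 56 group values checked by Dixon's criterion. About 2.8 would be flagged if the values were normally distributed. The check used CPM without a log scale and normality was not tested, so nothing is read from the excess. Adult saline replicate 5, the sample with skeletal muscle and fat RNA, was high in the summed CPM of the heart muscle genes (4559 CPM, next 2403), of the shared sarcomere genes (4043, next 2034), of the energy genes (128, next 50.5), of skeletal muscle (1160.4, next 22) and of fat (265, next 50.5), and in Myl3 (21.6, next 1.51). Aged HDM replicate 2 was high in the summed CPM of all heart muscle genes (1294, next 609), of the shared sarcomere genes (1102, next 504) and of the calcium handling genes (82.4, next 36.8), and in Myh6 (326, next 121). Aged HDM + Dex replicate 4 was high in the ventricle-enriched sum (172 CPM, next 55.1) and in Nppa (47.4, next 11.7). Adult saline replicate 1, the sample with the largest 7SL share, was low in the ventricle-enriched sum (32.7 CPM, next 65). Aged HDM replicate 5 was high in Myl3 (0.676 CPM, next 0.201), in a sample where 3 reads were worth 0.127 CPM. The sums and single genes share members, so these 14 values are not independent of each other.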

How the results depend on the processing

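Fitted changes of low genes depend on the pseudocount: the median log2 fold change of the 38 genes in HDM vs. saline was −2.92 with a pseudocount of 0.1 and −1.15 with 5, against −1.99 with 1. The number of heart muscle genes called in HDM vs. saline was 34 to 37 under the other settings, 25 of the 26 tested with a mean of at least 5 CPM, 15 without the samples above 25% in 7SL share and 0 in females alone, where fewer samples were fitted. In HDM + Dex vs. HDM, 1 gene was called; 3 were called with median-of-ratios rescaling, with quantile normalization or without the 7SL genes, 4 with all 24 samples in one fit, 6 with sample weights, and 0 with only the 2 groups, with the replicate block, without samples rich in 7SL or in females alone. In HDM + Dex vs. saline, 1 gene was called; 0 were called with a pseudocount of 0.1, with a mean of at least 5 CPM (where Xirp1 is not among the 26 tested), without samples rich in 7SL or in females alone, 2 with a pseudocount of 5, 4 with sex as a covariate, 17 in males alone and 26 with sample weights. Of all genes, 1.89% were called there, and 2.58%, 10.9%, 12.4% and 30.8% under the last 4 settings. Beyond fewer genes or samples, the cause of these shifts was not tested. Leaving out each sample gave 33 to 37 calls (median −2.15 to −1.89) in HDM vs. saline, 0 to 8 (0.75 to 1.16) in HDM + Dex vs. HDM, with 8 without HDM replicate 2, 0 to 11 (−1.30 to −0.78) in HDM + Dex vs. saline, with 11 without HDM + Dex replicate 4 and 0 without aged saline replicate 5, and 0 (−0.09 to 0.29) in aged vs. adult saline. The aged minus adult difference turned to −15.0 CPM for Ryr2 and −4.61 CPM for Mb after rescaling and to 0.10 for Ttn on the log2 scale. Leaving out each sample moved it from −3.09 to 10.1 CPM for Mb, −3.18 to 16.4 for Myh7, −2.65 to 13.6 for Ryr2, −258 to 269 for Ttn, 3.82 to 12.3 for Myl4 and 0.697 to 1.38 for Corin. Deviations of same-numbered samples correlated at −0.24 to 0.41, the highest in HDM + Dex vs. HDM. At most 2 of 7 pairs in a comparison were above 0.1. Differently numbered samples were not set beside them, so whether a number stands for a shared batch was not tested. With the replicate block, 35 genes were called in HDM vs. saline (median −1.84), 1 in HDM + Dex vs. saline and 0 in aged vs. adult saline. Over all genes, rescaling moved the median of aged vs. adult saline from 0.19 to 0.00, and over the heart muscle genes from 0.06 to −0.13. Genes under about 1 CPM rest on few reads per sample.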
